A study of Mus musculus with 6 samples.

Results

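The 10 genes described here act in cyclic AMP (cAMP) signalling. They are the phosphodiesterase genes *Pde3b*, *Pde4a*, *Pde4b*, *Pde4d* and *Pde7a*, the adenosine receptor gene *Adora2a*, the prostaglandin E2 receptor genes *Ptger2* and *Ptger4*, and the transcription factor genes *Crem* and *Creb1*. They were looked up by gene symbol among the 16244 genes listed. All 10 were found and all 10 had a mean of at least 10 normalized reads, as did 11908 genes of the whole table. Each RNA-seq library came from naive CD4+ T cells that had been polarized towards pathogenic Th17 cells over 3 days, with spleen given as the tissue. There were 3 libraries from WT mice and 3 from RORγt N275D mice, whose knockin allele changes 1 residue of the ligand-binding domain of RORγt, the factor that defines Th17 cells. The labels do not say whether the knockin donors carried 1 or 2 copies, or whether replicates came from separate mice, so that p-values measure the spread between these libraries, which may be technical. The labels give no age for these donors, and the methods state young adult mice for experiments in general, in groups matched for age and sex. According to the methods, cells were stimulated through CD3 and CD28. The series text names IL-6, IL-1β and IL-23 as the polarizing cytokines, whereas the methods describe these conditions as an addition to a mix that also holds TGF-β and antibodies against IL-4 and IFN-γ. The WT mice are listed as C57BL/6NJ and the knockin mice as C57BL/6 from another source, so genotype and mouse source cannot be told apart here.

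cAMP is made by adenylyl cyclases when a receptor coupled to the G protein Gs is engaged, and it is broken down by phosphodiesterases. In T cells it activates protein kinase A, which dampens signalling from the T cell receptor and phosphorylates the transcription factor CREB. Adenosine acts mainly through the receptor encoded by *Adora2a* and prostaglandin E2 through EP2 and EP4, all of which raise cAMP, and prostaglandin E2 is also known to favour the expansion of Th17 cells in the presence of IL-23. *Crem* encodes a relative of CREB, and one of its internal promoters gives rise to the repressor ICER, which is itself induced by cAMP.

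Each library held between 17659035 and 18510878 reads assigned to genes. WT replicate 3 stood apart from the other WT libraries, with a mean chi-square per gene of 5.13 and 5.68 against them, where counting alone gives about 1 and the other pairs of replicates gave 1.61 to 2.01. Summed over 8 T cell marker genes, libraries held 42889 to 44427 normalized reads in WT and 39150 to 40169 in N275D, and over 8 Th17 marker genes 69297 to 74403 and 84601 to 86098, so that the labelled cell type was borne out by its markers in all 6 libraries. Markers of other cells were present at low levels, except for *Ebf1*. The 12 myeloid markers summed to 104 to 130 normalized reads in WT and 126 to 162 in N275D libraries, with *Csf1r* and *Tyrobp* at 0 to 3.99 in every library. The 8 CD8 T and natural killer cell markers listed summed to 317 to 338 in WT and 478 to 538 in N275D. Of the 6 tested, 5 were called higher and *Cd8a* was not called. *Cd8a* had 25.2, 34.3 and 38.3 normalized reads in WT and 29.9, 28.1 and 24.7 in N275D libraries. *Klrb1c* had at most 2.02 in any library. The 8 B cell markers listed summed to 1145 to 1183 in WT and 1745 to 1804 in N275D. *Ebf1* held most of this, with 967 to 995 in WT and 1414 to 1538 in N275D libraries. The other 7 summed to 172 to 188 and 266 to 331. Among them, *Ms4a1* had 0 to 1.01 normalized reads in WT and 3.99 to 9.88 in N275D libraries. *Cd22* (log2 fold change 1.13), *Prf1* (1.01) and *Adgre1* (-1.70) were the markers called at 2-fold or more. The part of these cells in the results below was not tested, and in bulk RNA, fewer cells of a type and less RNA per cell cannot be told apart.

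Between N275D and WT Th17 cells, 5 of the 10 cAMP genes were higher, 4 were lower and 1 was not called, at an adjusted p under 0.05 by limma on log2(normalized reads + 1). *Crem*, *Pde4b*, *Pde4d*, *Pde4a* and *Pde3b* rose, and *Creb1*, *Adora2a*, *Ptger2* and *Pde7a* fell, the last of these only marginally. Over all genes tested, 24.7% were called higher and 26.1% lower, so that calls were common and 9 calls among 10 genes are to be read against 50.9% in either direction. The share depended on abundance. It was 25.9% higher and 9.33% lower among genes with a mean of 10 to under 100 normalized reads, the range of *Pde4a*. It was 28.1% higher and 21.9% lower from 100 to under 1000, the range of *Pde4d* and *Ptger2*, and 19.9% higher and 40.7% lower from 1000 upwards, the range of the other 7 genes. Only *Crem* passed a minimum of 2-fold, which 2.73% of all genes did in the higher and 0.857% in the lower direction. The groups did not overlap for 8 of the 10 genes, the exceptions being *Pde7a* and *Ptger4*, beside 57.7% of all genes tested. The median log2 fold change was 0.18 over the 10 genes and -0.0026 over all genes tested.

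**Figure D1:**
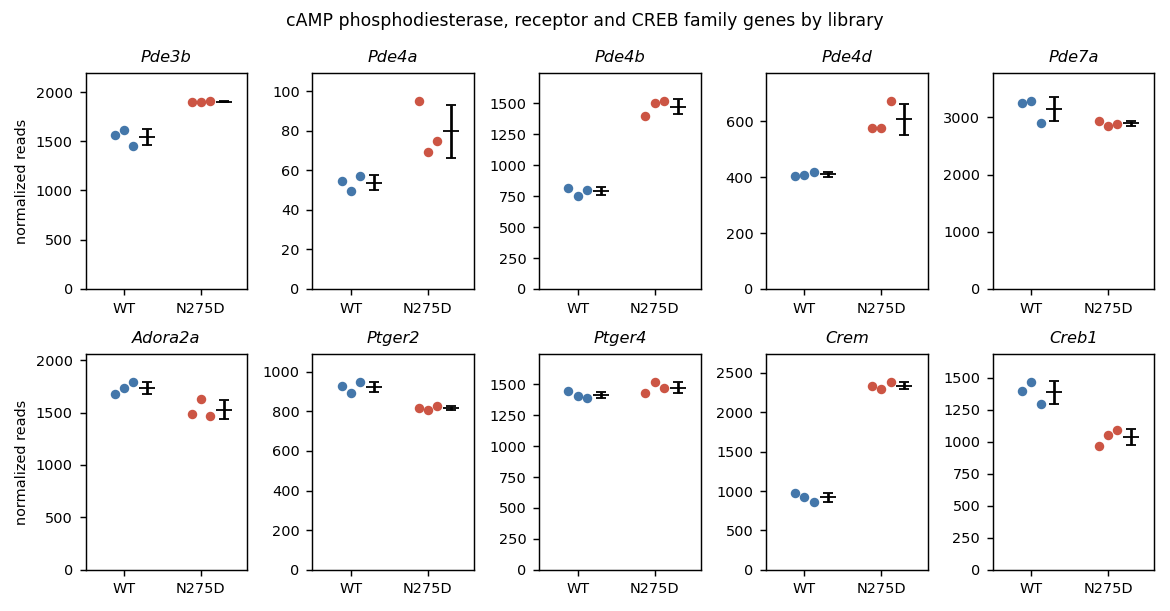
Normalized reads (y axis, from 0) of the 10 cAMP genes in each of 3 WT (blue) and 3 N275D (red) libraries, with the mean and SD beside each group. *Crem* and *Pde4b* separate most widely, whereas the groups overlap for *Pde7a* and *Ptger4*.

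Phosphodiesterases of the PDE4 family degrade cAMP specifically and are the main targets of drugs that raise cAMP in immune cells. *Pde4b* (chromosome 4, 102087332 to 102607275 of GRCm38) had 816, 755 and 798 normalized reads in the WT libraries and 1401, 1499 and 1515 in the N275D libraries. Every mutant library lay far above every WT library, with means of 789 ± 31.3 and 1471 ± 61.9 (SD, n = 3 each). Fitted by limma, the log2 fold change came to 0.90 (SE 0.05 and limma adjusted p = 7.45e-10), a 1.86-fold difference of the means.

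*Pde4d* (chromosome 13, 108654177 to 109955969), the longest of these genes, had 405, 408 and 420 normalized reads in WT and 577, 575 and 672 in N275D libraries. The 3 WT values were close together, all mutant values lay above them, and N275D replicate 3 was the highest. This was a log2 fold change of 0.56 (SE 0.07 and limma adjusted p = 4.64e-06). *Pde4a* (chromosome 9, 21165700 to 21213248) was the least abundant of the 10 genes, with 54.5, 49.4 and 57.0 normalized reads in WT and 94.8, 69.2 and 75.1 in N275D libraries. Its groups did not overlap, but N275D replicate 1 lay well above the other mutant libraries. The log2 fold change of *Pde4a* was 0.55 (SE 0.15 and limma adjusted p = 0.00500), with a 95% interval from 0.24 to 0.86.

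All 3 PDE4 genes in the set thus rose, and in every library *Pde4b* had the most normalized reads of the 3, followed by *Pde4d* and then *Pde4a*. Per kb of exonic length the order was the same, with 74.7 ± 2.97, 34.2 ± 0.70 and 7.01 ± 0.50 normalized reads per kb in WT and 139 ± 5.86, 50.6 ± 4.60 and 10.4 ± 1.75 in N275D cells (SD, n = 3 each). The *Pde4d* to *Pde4b* ratio within a library, which does not depend on how libraries are scaled, had a mean log2 value of -0.94 ± 0.06 in WT and -1.28 ± 0.10 in N275D libraries (SD, n = 3 each). The difference was -0.34 and the groups did not overlap (exact two-sided permutation p = 0.1, the smallest that 3 libraries against 3 can give, and 0.15 adjusted over 6 ratios). The *Pde4b* to *Pde4a* ratio differed by 0.35 and overlapped (exact permutation p = 0.3, adjusted 0.36), since N275D replicate 1 lay within the WT range. With a pseudocount of 10 this ratio differed by 0.40 (exact permutation p = 0.1), so that its overlap depended on the pseudocount. The *Pde4d* to *Pde4a* ratio differed by 0.0076, with an exact permutation p = 0.9 (adjusted 0.9) and a wide spread in the mutant libraries (SD 0.29, n = 3).

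The PDE4 genes use several start sites, and gene totals do not separate the isoforms that arise from them. RefSeq start sites on GRCm38.p6 gave 250-base upstream windows for 6 of the 10 genes, which were *Pde4a*, *Pde4b*, *Pde4d*, *Ptger2*, *Ptger4* and *Creb1*, with 11 windows in all. They were searched on both strands for the full cAMP response element TGACGTCA, its core TGACG, the hypoxia response core ACGTG and the ROR core AGGTCA. Of all 32851 windows of this length, these were held by 1.55%, 17.8%, 16.6% and 14.0%. In the windows of these genes, 3 held at least 1 of the motifs, all of them in PDE4 genes, to which most of the 11 windows belong. The other windows of *Pde4a* and *Pde4b* held none of the motifs. Neither TGACGTCA nor AGGTCA was found in any of the 11. The 100 bases before the start are shown for these 3 windows only, because they hold a match, with the matched letters in capitals.
*Pde4b* (plus strand, chr4:102421455-102421554): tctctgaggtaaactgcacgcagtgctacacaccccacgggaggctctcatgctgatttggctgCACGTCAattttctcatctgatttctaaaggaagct
*Pde4a* (plus strand, chr9:21184001-21184100): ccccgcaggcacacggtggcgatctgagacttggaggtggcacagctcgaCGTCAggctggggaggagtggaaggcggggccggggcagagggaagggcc
*Pde4d* (plus strand, chr13:108654077-108654176): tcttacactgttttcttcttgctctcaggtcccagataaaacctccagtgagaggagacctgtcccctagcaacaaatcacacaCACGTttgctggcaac
In *Pde4b* the capitals mark a TGACG core from position -34 and an ACGTG core from -36, both read on the opposite strand and overlapping each other, where -1 is the last base before the start. In *Pde4a* they mark a TGACG core from -50 and in *Pde4d* an ACGTG core from -16, also on the opposite strand. These matches describe letters only, and motifs of this length are common.

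PDE3B degrades cAMP and is inhibited by cGMP, and its transcript is abundant in T cells. *Pde3b* (chromosome 7, 114415222 to 114537938) had 1561, 1618 and 1452 normalized reads in WT and 1897, 1901 and 1905 in N275D libraries. The mutant values were nearly identical and all lay above the WT values. On the log2 scale N275D differed from WT by 0.30 (SE 0.05 and limma adjusted p = 5.55e-05).

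*Pde7a* (chromosome 3, 19223108 to 19311322) encodes a high-affinity cAMP-specific enzyme and was the most abundant of the 10 genes in normalized reads. It had 3259, 3279 and 2895 normalized reads in WT and 2942, 2851 and 2890 in N275D libraries. WT replicate 3, the library that stood apart, lay within the mutant range. Fitted by limma, the log2 fold change came to -0.12 (SE 0.05 and limma adjusted p = 0.0476), and the call held in only 4 of 16 alternatives, with an adjusted p of 0.0581 in edgeR and 0.0734 in DESeq2. Without WT replicate 3 the log2 fold change was -0.18 (adjusted p = 0.000101 from limma). The *Pde3b* to *Pde7a* ratio within a library had a mean log2 value of -1.02 ± 0.03 in WT and -0.61 ± 0.02 in N275D cells (SD, n = 3 each), a difference of 0.42 with no overlap (exact permutation p = 0.1, adjusted 0.15).

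Among 16 phosphodiesterase genes whose products can degrade cAMP, counted per kb of exonic length, *Pde7a* held 47.2% ± 1.01 of the summed level in WT and 38.0% ± 0.55 in N275D cells (SD, n = 3 each). *Pde4b* held 8.72% ± 0.62 and 14.2% ± 0.62, and *Pde3b* 19.7% ± 0.32 and 21.2% ± 0.26 (SD, n = 3 each). The summed level ranged from 811 to 884 normalized reads per kb in WT and from 971 to 996 in N275D libraries. With the length of the longest coding transcript in place of all exons, *Pde7a* held 39.4% in WT and 29.8% in N275D cells. *Pde4b* held 14.5% and 22.2%. The size of the *Pde7a* and *Pde4b* shares thus depends on the length used, while their direction did not. By the longest coding transcript *Pde3b* held 18.5% ± 0.39 in WT and 18.8% ± 0.26 in N275D cells (SD, n = 3 each). Its groups then overlapped, and a rise of its share without overlap was seen only with all exons.

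ADORA2A is the main adenosine receptor of T cells and restrains their effector function through cAMP. *Adora2a* (chromosome 10, 75316877 to 75334792) had 1678, 1731 and 1790 normalized reads in WT and 1486, 1629 and 1468 in N275D libraries. The groups did not overlap, although N275D replicate 2 came close to the lowest WT library. The means were 1733 ± 55.6 and 1528 ± 88.4 (SD, n = 3 each), which gave -0.18 on the log2 scale (SE 0.05 and limma adjusted p = 0.00540).

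EP2 and EP4, the products of *Ptger2* and *Ptger4*, are the receptors through which prostaglandin E2 raises cAMP. *Ptger2* (chromosome 14, 44988111 to 45003820) had 928, 894 and 947 normalized reads in WT and 818, 809 and 826 in N275D libraries. Its values were tight in both groups and every mutant library lay below every WT library, with a log2 fold change of -0.17 (SE 0.05 and limma adjusted p = 0.00752). *Ptger4* (chromosome 15, 5233399 to 5244187) had 1444, 1406 and 1392 normalized reads in WT and 1430, 1517 and 1469 in N275D libraries, so that the groups overlapped. Its log2 fold change was 0.06 with a 95% interval from -0.04 to 0.15 (adjusted p = 0.299 from limma).

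The *Ptger4* to *Ptger2* ratio within a library had log2 values of 0.64, 0.65 and 0.56 in WT and 0.81, 0.91 and 0.83 in N275D cells. The difference of 0.23 showed no overlap (exact permutation p = 0.1, adjusted 0.15). In the annotation, 16.5% of the exonic bases of *Ptger4* and 7.51% of those of *Ptger2* overlap exons of genes on the opposite strand. The methods describe strand-specific libraries, but whether the counting used strand is not given in the sources used here. A part of these reads could thus belong to the neighbours. Per kb of exonic length, *Adora2a* had the highest level of the 10 genes in both genotypes, with 566 ± 18.2 normalized reads per kb in WT and 499 ± 28.9 in N275D cells (SD, n = 3 each). Per kb of the longest coding transcript it was again highest in WT cells, with 668 ± 21.4, whereas in N275D cells *Crem*, with 797 ± 15.0, lay above *Adora2a*, with 588 ± 34.0 (SD, n = 3 each).

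*Crem* showed the largest change of the 10 genes. On chromosome 18 (3266354 to 3337773), it had 976, 921 and 865 normalized reads in WT and 2332, 2295 and 2383 in N275D libraries. The highest WT library had less than the lowest mutant library by a wide margin, and the spread within each group was small, with means of 921 ± 55.3 and 2337 ± 44.0 (SD, n = 3 each). This was a log2 fold change of 1.34 (SE 0.05 and limma adjusted p = 4.50e-12), a 2.54-fold difference of the means. The annotation lists 39 transcripts of *Crem*, of activating and repressing forms, and the gene total does not show which of them rose, ICER included. Exons of a gene on the opposite strand overlap 8.01% of its exonic bases.

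*Creb1* (chromosome 1, 64532794 to 64604548), which encodes the factor that protein kinase A phosphorylates, moved the other way. It had 1398, 1467 and 1295 normalized reads in WT and 967, 1055 and 1091 in N275D libraries, with no overlap. On the log2 scale N275D differed from WT by -0.42 (SE 0.06 and limma adjusted p = 1.73e-05). Within each WT library *Crem* had fewer normalized reads than *Creb1*, and within each N275D library it had more. The mean log2 ratio was -0.59 ± 0.08 in WT and 1.17 ± 0.08 in N275D cells (SD, n = 3 each), a difference of 1.76 (exact permutation p = 0.1, adjusted 0.15). Of the 6 ratios, that of *Crem* to *Creb1* differed most.

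**Figure D2:**
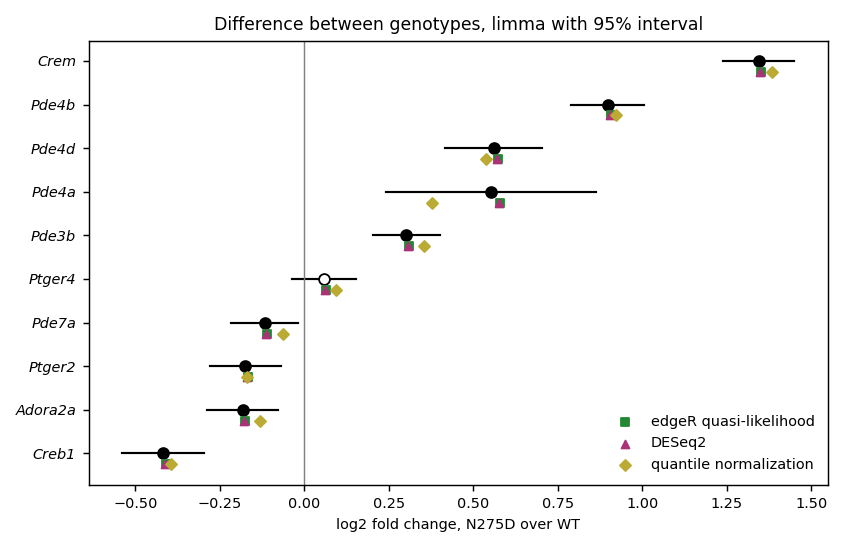
Log2 fold changes of N275D over WT (x axis) for the 10 cAMP genes by limma (circles, filled where the adjusted p is under 0.05, with 95% intervals), with the values from edgeR, DESeq2 and quantile normalization beneath each. *Crem* (1.34) and *Pde4b* (0.90) lie farthest to the right, and the estimates lie farthest apart for *Pde4a*, which quantile normalization lowers to 0.38.

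**Figure D3:**
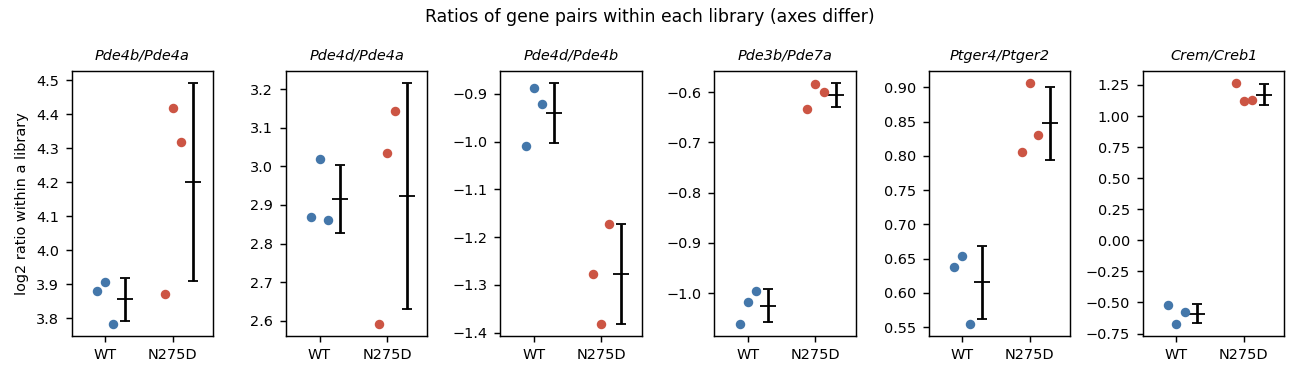
Log2 ratio of a pair of genes within each of 3 WT (blue) and 3 N275D (red) libraries for 6 pairs, with the mean and SD beside each group and a separate y axis for each pair. The groups do not overlap for *Pde4d* to *Pde4b*, *Pde3b* to *Pde7a*, *Ptger4* to *Ptger2* and *Crem* to *Creb1*.

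The rest of the pathway was described with 7 lists of genes that are not among the 10, holding 109 genes, of which 82 were tested. Of these, 31 were called higher and 24 lower in N275D cells. The counts in each list are to be read against 24.7% higher and 26.1% lower over all genes, and the share by abundance given above applies here too.

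The other phosphodiesterase genes leaned upwards, with 8 of 10 tested called higher and 2 lower, and a median log2 fold change of 0.73. *Pde4c*, the remaining PDE4 gene, had 8.07, 13.1 and 17.7 normalized reads in WT and 22.0, 34.1 and 32.6 in N275D libraries, a log2 fold change of 1.17 (adjusted p = 0.00323 from limma). *Pde1a* (0.93) and *Pde5a* (0.90) were higher at similarly low levels. Most of the higher genes were of low abundance, since only *Pde1b*, *Pde6d* and *Pde8a* among them had a mean above 100 in both genotypes. *Pde11a*, whose enzyme degrades both cAMP and cGMP, changed from 218 ± 14.5 normalized reads in WT to 118 ± 17.5 in N275D cells (SD, n = 3 each), which gave -0.89 on the log2 scale (limma adjusted p = 5.12e-06). *Pde12* (-0.26) was the other lower gene, and its product acts on oligoadenylates and RNA tails and not on cAMP. *Pde6d*, whose product carries prenylated proteins, does not degrade cAMP either. *Pde5a* was also not counted among the genes above whose products can degrade cAMP.

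Of the 13 genes tested for adenosine and prostaglandin metabolism, 3 were higher and 5 lower, with a median log2 fold change of -0.08. *Nt5e*, which encodes CD73, the ectoenzyme that makes adenosine from AMP, had 63.6, 65.6 and 50.1 normalized reads in WT and 146, 173 and 154 in N275D libraries, a log2 fold change of 1.39 (SE 0.13 and limma adjusted p = 2.17e-07). *Entpd1*, which encodes CD39, the enzyme upstream of CD73, had 35.3, 30.3 and 41.3 normalized reads in WT and 76.9, 93.3 and 88.9 in N275D libraries, a log2 fold change of 1.26 (SE 0.16 and limma adjusted p = 5.87e-06). Both ectoenzyme genes were thus more than 2-fold higher, from low levels. CD39 and CD73 are also made by B cells, and the B cell markers listed above were higher in the N275D libraries as well, a part that was not tested.

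The equilibrative nucleoside transporter genes *Slc29a1* (log2 fold change -0.44) and *Slc29a2* (-0.52) fell, *Slc29a1* from 1980 ± 1.47 normalized reads in WT to 1461 ± 84.5 in N275D cells (SD, n = 3 each, adjusted p = 1.34e-06 from limma). *Ada*, the gene of adenosine deaminase, changed from 182 ± 10.4 normalized reads in WT to 137 ± 16.7 in N275D cells (SD, n = 3 each), which gave -0.42 on the log2 scale (limma adjusted p = 0.00315). *Adk*, the gene of adenosine kinase, had a log2 fold change of -0.08 (adjusted p = 0.188 from limma). *Dpp4* (0.28), whose product CD26 binds adenosine deaminase at the cell surface, was higher. *Ptgs2*, the gene of the inducible cyclooxygenase, had 148 ± 6.90 and 154 ± 8.10 normalized reads (SD, n = 3 each, adjusted p = 0.630 from limma).

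Of 6 other receptor genes tested, *Adora2b*, the low-affinity adenosine receptor, was the only one called by limma with all 6 libraries in the fit. Without WT replicate 3, the library that stood apart, 2 were called higher, the other being *Tbxa2r*, the thromboxane receptor gene. *Adora2b* had 137, 128 and 176 normalized reads in WT and 252, 225 and 238 in N275D libraries, a log2 fold change of 0.70 (SE 0.11 and limma adjusted p = 5.57e-05). The direction was opposite to that of *Adora2a*, which remained far more abundant in normalized reads.

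**Figure D4:**
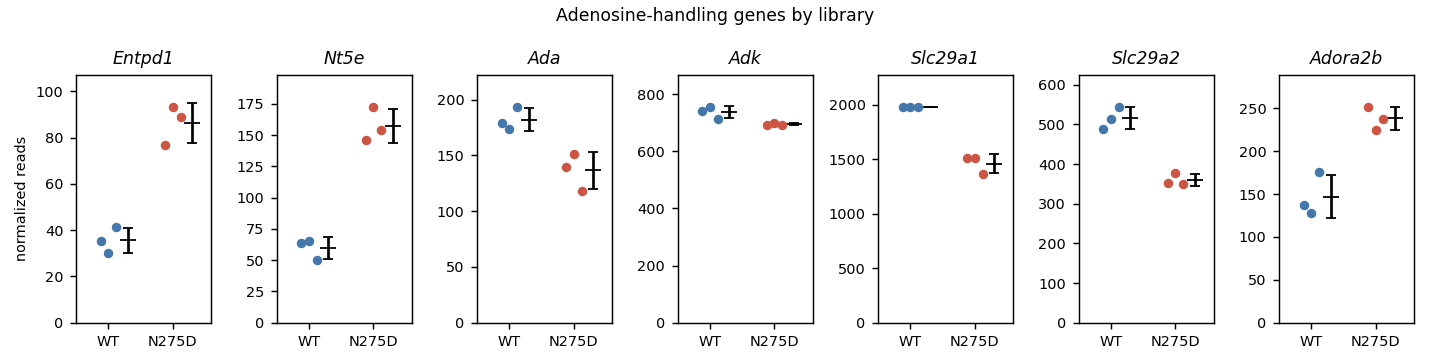
Normalized reads (y axis, from 0) of genes for adenosine production (*Entpd1*, *Nt5e*), clearance (*Ada*, *Adk*), transport (*Slc29a1*, *Slc29a2*) and the low-affinity receptor (*Adora2b*) in 3 WT (blue) and 3 N275D (red) libraries, with the mean and SD beside each group. *Entpd1*, *Nt5e* and *Adora2b* are higher in every N275D library, and *Ada*, *Slc29a1*, *Slc29a2* and *Adk* are lower. Of these genes only *Adk* was not called.

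Among adenylyl cyclases and G protein subunits, 4 of 9 genes tested were higher and the other 5 were not called, with a median of 0.04. *Adcy6* rose from 197 ± 18.4 normalized reads in WT to 371 ± 21.8 in N275D cells (SD, n = 3 each), which gave 0.91 on the log2 scale (SE 0.08 and limma adjusted p = 2.20e-07). *Gnal* (0.68), *Adcy3* (0.25) and *Gnas* (0.17), the gene of the main Gs alpha subunit, were the other genes called. *Adcy7*, the most abundant cyclase gene in normalized reads, had 2142 ± 33.4 in WT and 2142 ± 67.0 in N275D cells (SD, n = 3 each). The inhibitory subunit genes *Gnai2* (0.04) and *Gnai3* (0.04) were not called.

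Effectors of cAMP were mixed, with 7 of 18 tested called higher and 5 lower, and a median of 0.12. *Prkar1a*, the most abundant regulatory subunit gene of protein kinase A, had a log2 fold change of -0.0002 with a 95% interval from -0.07 to 0.07. *Prkar2a* fell by 0.32 on the log2 scale, and the less abundant *Prkar1b* (0.84) and *Prkar2b* (0.43) were higher. Of the catalytic subunit genes, *Prkacb* (-0.18, adjusted p = 0.00359 from limma) was lower and *Prkaca* (-0.08) was not called. Among genes of anchoring proteins, 5 were called higher, which were *Akap7* (0.48), *Akap13* (0.33), *Akap9* (0.26), *Akap11* (0.24) and *Akap10* (0.20). Of these, *Akap13* was the most abundant in normalized reads. Lower were *Akap5* (-0.62), *Akap1* (-0.46) and *Akap8* (-0.19), with *Akap5* at an adjusted p of 0.0467 from limma and overlapping groups.

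Of the 12 CREB family and coactivator genes tested, 4 were higher and 2 lower, with a median of 0.08. The higher count rested on single libraries, since it was 2 without WT replicate 1 or without N275D replicate 1, and 5 without WT replicate 3. *Crebbp* was among the genes not called without WT replicate 1 or without N275D replicate 1. *Creb3l2*, which encodes a membrane-bound factor of the secretory pathway, rose from 361 ± 17.0 normalized reads in WT to 660 ± 21.1 in N275D cells (SD, n = 3 each), which gave 0.87 on the log2 scale (limma adjusted p = 1.02e-08). *Crebl2* (0.46) and *Crebbp* (0.16), the gene of the CREB-binding protein, were also higher. The coactivator genes *Crtc1* (-0.27) and *Crtc2* (-0.22) were lower.

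Genes known to respond to CREB did not move together. Of 14 tested, 4 were higher and 10 lower, with a median of -0.44. *Rgs2*, whose product limits G protein signalling, rose from 409 ± 16.0 normalized reads in WT to 746 ± 41.9 in N275D cells (SD, n = 3 each), which gave 0.86 on the log2 scale (limma adjusted p = 1.12e-08), and *Arc* (0.59) and *Sik1* (0.36), a kinase gene of CRTC feedback, were higher too. *Nr4a1* (-0.84), *Egr1* (-0.70) and *Fosb* (-0.68) were the most reduced, and these immediate early genes also respond to the T cell receptor.

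**Figure D5:**
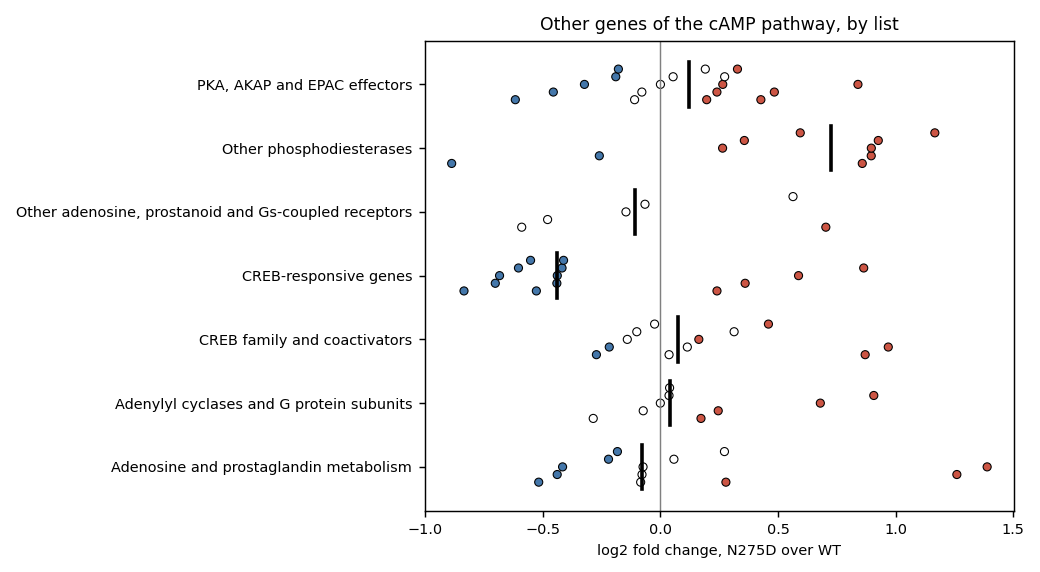
Log2 fold change of N275D over WT (x axis) for each tested gene of 7 cAMP pathway lists, in red where called higher, blue where called lower and white where not called, with a bar at the median of the list. The other phosphodiesterases lie mostly to the right (median 0.73) and the CREB-responsive genes mostly to the left (median -0.44).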

How the data were processed

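RNA-seq of 3 WT and 3 N275D Th17 libraries was analysed, grouped by their labels. Per the methods, reads were trimmed, mapped to mm10 using STAR and assigned to genes by featureCounts, and the authors used DESeq2 to compare genotypes. The versions are not given in the sources used here. The signal values deposited for each library are reads scaled by a single factor, since 100% of them were whole multiples of it within 1e-06, which allowed the reads to be recovered. The authors' deposited log2 fold changes and q-values, and score columns with group averages and transcript numbers, were not used.

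limma (version 3.58.1, R 4.3.3) with a trended prior was run on log2(normalized reads + 1) with no block. It covered 11908 genes, those whose mean reached 10, and p-values were adjusted by Benjamini-Hochberg over all of them, with a threshold of 0.05. Fold changes of low genes are understated on this scale. Ratios within libraries were tested by exact two-sided permutation (scipy 1.17.1). The 10 genes and all lists were chosen with earlier results of these data known. From each pathway list, up to 3 increases and 3 decreases with the largest changes among calls with means of 10 or more in both genotypes were named, as were those at 2-fold without overlap. Markers called at 2-fold and some defining markers near 0 were named too. Some genes are not reported here. *Gnas*, *Gnai2*, *Gnai3*, *Adcy7*, *Prkar1a*, *Akap8*, *Akap9*, *Akap10*, *Akap11*, *Akap13*, *Tbxa2r*, *Adk*, *Ptgs2*, *Pde1b*, *Pde6d* and *Pde8a*, and the genes of the closing observations, were added after their values were seen. So were *Prkaca*, *Prkacb* and *Cd8a*. Gene positions and promoter sequences are from RefSeq (GRCm38.p6, the assembly behind mm10) and exon lengths from GENCODE vM21. Alternatives were pseudocounts of 0.1 and 10, minimum means of 100 or just over 0, scaling by TMM or quantiles, eBayes lacking the trend, a replicate block and each library left out. Recovered reads were also tested by edgeR (4.0.16) and DESeq2 (1.42.0).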

Additional observations from a re-analysis of the deposited data

How the results depend on the processing

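Of the 10 cAMP genes, 9 kept their direction and their side of the threshold in all alternatives run, and *Pde7a* did not. The higher genes numbered 5, or 4 where a mean of at least 100 left *Pde4a* untested, and the lower genes numbered 3 or 4. Leaving out a library in turn gave 5 higher genes each time and 3 to 4 lower ones. For *Pde7a* the log2 fold change stayed negative, from -0.18 to -0.06, and the adjusted p was lowest at 0.000101 without WT replicate 3 and highest at 0.304 with quantile normalization. The cause was not tested. Without WT replicate 3, *Crem*, *Pde4b*, *Pde4d*, *Pde4a*, *Pde3b*, *Creb1*, *Adora2a* and *Ptger2* remained called by limma. Over the 7 pathway lists, 31 genes were higher in the fit as reported and 20 with a mean of at least 100, where fewer genes are tested, 3 of them in place of 8 among the other phosphodiesterases. Leaving out a library gave 26 to 32 higher and 23 to 25 lower genes. Among the other receptor genes, 1 was called lower with quantile normalization and with eBayes without a trend, against 0 as reported by limma with a trend.

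Without 1 library, the *Pde4d* to *Pde4a* difference ranged from -0.10 to 0.17. It reversed to -0.016 without WT replicate 1, to -0.020 without WT replicate 3, to -0.048 without N275D replicate 2 and to -0.10 without N275D replicate 3, so that no direction can be given. The other ratio differences kept their sign, with ranges of 0.24 to 0.51 for *Pde4b* to *Pde4a*, -0.39 to -0.29 for *Pde4d* to *Pde4b*, 0.40 to 0.43 for *Pde3b* to *Pde7a*, 0.20 to 0.25 for *Ptger4* to *Ptger2* and 1.71 to 1.80 for *Crem* to *Creb1*. Among all genes tested, the median log2 fold change moved between -0.02 and 0.01 over the alternatives.

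Libraries of the same number did not deviate together, with correlations of -0.05, 0.04 and -0.08, and only the pair numbered 2 correlated best with its own number, so the numbers were not taken as pairs. With the number as a replicate block, 2805 genes were called higher and 2922 lower, against 2947 and 3109. The log2 fold change of *Pde7a* was then -0.12 with an adjusted p of 0.0586, and the calls of the other 9 genes did not change. Counting error weighs most on *Pde4a*, the least abundant of the 10 genes, and groups of 3 limit every comparison.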

Other observations

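Several receptor genes of the pathway were at or near 0 in these Th17 cultures. *Adora1* had at most 0.998 normalized reads in any library, *Adcyap1r1*, the receptor gene of the neuropeptide PACAP, at most 1.01, and *Ptgdr2* at most 1.01. *Adora3* lay between 4.91 and 13.8 and *Ptger1* between 5.04 and 14.0 normalized reads, both under the minimum mean for testing. The prostacyclin receptor gene *Ptgir* was the most abundant of the other receptor genes tested, with 273, 297 and 341 normalized reads in WT and 284, 257 and 278 in N275D libraries (log2 fold change -0.15, adjusted p = 0.165 from limma).

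Among low cyclase genes, *Adcy5* had 10.1, 16.1 and 13.8 normalized reads in WT and 2.99, 7.02 and 2.96 in N275D libraries, and *Adcy4* had 8.07, 8.07 and 7.86 and 4.99, 4.01 and 1.98. Both were under the minimum mean for testing and lay lower in every N275D library, in contrast to *Adcy6* and *Adcy3*. When all genes with a mean above 0 were tested, 2 genes of the list of cyclases and G proteins were called lower by limma, and without N275D replicate 3 *Adcy5* reached the minimum mean and was called lower.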
